A study of Mus musculus with 74 samples.

Results

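Nuclear factor kappa B (NF-kB) subunits and the genes of its feedback loop were followed on 74 mouse 2-colour arrays. The members were every probe whose platform gene symbol is Nfkb2, Rel, Relb, Rela, Nfkbia, Nfkbib, Nfkbie, Tnfaip3 or Birc3, which gave 10 probes of 9 genes among 16463 probes. Birc3 had a pair of probes (M200000771 and M200007383) and the other genes 1 each, and no listed gene was missing. The series asked how the histone deacetylase HDAC7 acts on gene expression during selection in the thymus. Each array compared the RNA of a test sample with that of a partner sample.

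In 7 groups the test cells were DO11.10 T cell hybridoma cells, a T cell line made by fusion with a tumour cell, and the partner was untreated hybridoma. The cells had been transduced with the empty MSCV retrovirus (a 12-array set and a separate 4-array set), HDAC7-VP16 (10 arrays), MEF2D-VP16 (4 arrays) or Nur77 (4 arrays). A further pair of groups, of 8 arrays each, carried the empty virus or the construct labelled HDAC7 DP (the labels do not spell out DP) and were stimulated with PMA plus ionomycin over 2.5 h. VP16 is a viral activation domain, and PMA with ionomycin mimics antigen receptor signalling. In 4 groups of 6 arrays the cells were total thymocytes. One of them set mice carrying the DO11.10 T cell receptor transgene against mhc -/- mice, and the others took transgenic mice that had received antigenic peptide 3 h, 6 h or 12 h earlier, with uninjected transgenic mice as partner. All hybridoma groups share the DO11.10 line, and all peptide groups share the transgene. Neither the number of cultures or animals behind the arrays nor the promoter and age of the transgenic mice is stated in the sources used here. The p-values thus rest on array-to-array spread, part or all of which may be technical.

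NF-kB factors are dimers of Rel family proteins that inhibitors of kappa B hold in the cytoplasm. Signals from antigen receptors and cytokine receptors activate a kinase complex that marks the inhibitors for destruction, and the freed dimers enter the nucleus. Among their targets are the genes of subunits, of inhibitors and of ubiquitin enzymes that shut the pathway down. In T cells the pathway serves activation and survival, and in the thymus it takes part in positive and negative selection.

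The regulatory sequence upstream of these genes is shown because the members differ in whether it holds a match to the NF-kB consensus. RefSeq promoters of build GRCm38.p6 were found for 8 of the 9 members. The 250 bases before the transcription start held at least 1 match in Nfkb2, Rel, Nfkbia, Nfkbie and Tnfaip3 (5 members) and none in Rela, Nfkbib and Birc3. Counted by promoter, since some members have several starts, 7 of 11 member promoters had a match. Among 32851 promoters in the table, 3.9% had a match in a window of that length. The consensus was GGGRNWYYCC, where R is A or G, N any base, W A or T, and Y C or T. The windows run from chr19:46304487-46304736 (plus strand) for Nfkb2, chr11:23770970-23771219 (minus) for Rel, chr12:55492648-55492897 (minus) for Nfkbia, chr17:45555450-45555699 (plus) for Nfkbie, chr10:19015411-19015660 (minus) for Tnfaip3 and chr19:5637291-5637540 (plus) for Rela. They are written 5′ to 3′, with the first start of Nfkb2 and of Tnfaip3 where the table lists several, and capitals mark matches to the consensus on either strand. Rela is printed as a member without a match.
Nfkb2: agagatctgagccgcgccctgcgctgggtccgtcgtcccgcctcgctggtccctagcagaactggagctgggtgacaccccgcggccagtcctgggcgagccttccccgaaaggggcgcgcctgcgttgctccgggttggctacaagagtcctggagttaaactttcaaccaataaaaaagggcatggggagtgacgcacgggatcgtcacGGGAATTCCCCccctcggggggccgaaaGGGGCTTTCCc
Rel: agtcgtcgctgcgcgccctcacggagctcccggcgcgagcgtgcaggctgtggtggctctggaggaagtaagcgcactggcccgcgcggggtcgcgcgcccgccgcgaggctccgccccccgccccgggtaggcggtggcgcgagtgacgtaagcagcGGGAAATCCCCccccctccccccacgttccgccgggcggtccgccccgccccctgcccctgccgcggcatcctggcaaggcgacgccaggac
Nfkbia: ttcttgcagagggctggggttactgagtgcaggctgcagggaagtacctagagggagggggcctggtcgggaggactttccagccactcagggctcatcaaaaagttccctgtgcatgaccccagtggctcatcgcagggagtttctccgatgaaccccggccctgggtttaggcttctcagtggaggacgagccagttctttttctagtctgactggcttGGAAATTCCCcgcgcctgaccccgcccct
Nfkbie: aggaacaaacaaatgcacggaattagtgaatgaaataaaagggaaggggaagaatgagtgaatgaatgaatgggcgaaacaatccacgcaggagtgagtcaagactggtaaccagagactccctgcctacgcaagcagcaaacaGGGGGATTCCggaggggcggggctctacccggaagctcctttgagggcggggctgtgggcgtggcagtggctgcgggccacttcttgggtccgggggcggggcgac
Tnfaip3: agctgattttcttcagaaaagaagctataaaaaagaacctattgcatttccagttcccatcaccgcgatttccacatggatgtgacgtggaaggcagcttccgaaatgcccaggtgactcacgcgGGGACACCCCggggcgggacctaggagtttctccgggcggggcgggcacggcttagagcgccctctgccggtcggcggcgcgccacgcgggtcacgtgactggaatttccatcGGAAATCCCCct
Rela: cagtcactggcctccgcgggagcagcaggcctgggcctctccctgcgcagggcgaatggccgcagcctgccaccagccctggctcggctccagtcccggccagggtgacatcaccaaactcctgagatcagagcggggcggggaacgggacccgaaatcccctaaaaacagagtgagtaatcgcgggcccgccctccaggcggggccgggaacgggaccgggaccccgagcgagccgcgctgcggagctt

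In Nfkb2 there were 3 matches, at -39 to -30, -38 to -29 and -11 to -2 from the start, the first 2 of which overlap on opposite strands. The matches of Rel, at -92 to -83 and -91 to -82, overlap in the same way. Nfkbia had 1 match at -29 to -20, Nfkbie 1 at -106 to -97, and Tnfaip3 a pair at -125 to -116 and -12 to -3. The AP-1 motif, TGANTCA on either strand, occurred in the printed windows of Nfkbie (-156 to -150) and Tnfaip3 (-136 to -130) and in 6.75% of all promoters. A match describes the letters only, and binding was not measured.

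Values below are log2 ratios of test over partner RNA after centring each array on its median, so a value of 1 stands for a doubling. The base of the logarithm is assumed, and the direction is likely rather than stated. It rests on Nr4a1, the gene of Nur77, at 4.50 ± 1.21 (SD, n = 4) on the Nur77 arrays, and on Cd5 and Egr1, genes linked to receptor signalling, at 3.77 ± 0.74 and 3.16 ± 0.20 (SD, n = 6) on the transgenic against mhc -/- arrays, taken as more RNA in the transgenic thymocytes. Correlations over probes between arrays of opposite dye orientation were positive in 8 groups and negative in HDAC7-VP16 (median -0.48) and both empty-virus sets (-0.40 and -0.24). Whether the dye or the direction of the ratios lies behind the negative values was not tested. The direction of replicates 3 and 9 of the 12-array set is unsettled. Changes are from limma fits with a dye term, with their standard error (SE), and a probe is said to rise, fall or change only at a Benjamini-Hochberg adjusted p under 0.05 over all 16463 probes. Spot intensities were not used, so neither levels nor the presence of cell type markers could be measured.

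**Figure D1:**
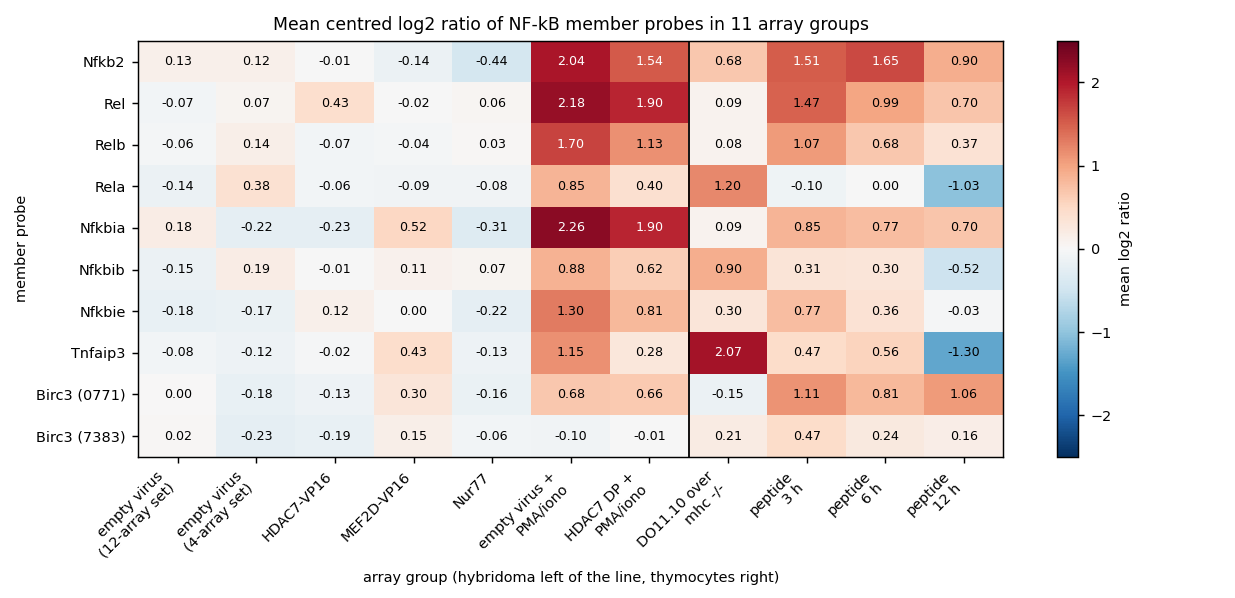
Mean centred log2 ratio of each member probe (rows) in the 11 array groups (columns), with red above and blue below 0. The stimulated hybridoma groups hold the highest means of Nfkb2, Rel, Relb, Nfkbia and Nfkbie, and the transgenic against mhc -/- group those of Rela, Nfkbib and Tnfaip3 in the likely direction of its ratio, and the lowest of these 3 with the sign turned.

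In stimulated hybridoma cells nearly the whole set rose. With the empty virus, 9 of the 10 member probes rose 2.5 h after PMA and ionomycin against the 12-array empty-virus set and 0 fell, where 12.5% of all probes were called, 6.07% higher and 6.43% lower. The median change of the members was 1.35, beside -0.01 over all probes. Rel, the inhibitor Nfkbia, Nfkb2 and Relb changed most, in that order. On 5 probes (Nfkb2, Rel, Relb, Nfkbia and Nfkbie) every stimulated array lay above every empty-virus array, as did or lay below 1.79% of all probes.

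Rel encodes c-Rel, the subunit most tied to lymphocyte activation. Its stimulated ratios ran from 1.08 through a median of 2.15 to 3.23, against -0.29, -0.07 and 0.13 with the empty virus alone. The change was 2.25 (SE 0.21, 4.74-fold, adjusted p = 3.61e-07). Nfkb2 encodes the precursor of the p52 subunit, and its ratios were 1.29, 2.04 and 2.83 against -0.45, 0.16 and 0.97. Nfkb2 rose by 1.91 (SE 0.19, 3.77-fold, adjusted p = 5.98e-07). The partner that p52 usually takes is encoded by Relb, whose stimulated ratios were 0.78, 1.60 and 2.81 against -0.72, -0.02 and 0.46. Relb rose by 1.75 (SE 0.22, 3.37-fold, adjusted p = 1.67e-05). Rela, which encodes the p65 subunit of the most common dimer, behaved differently in size and overlap. Its stimulated ratios of 0.14, 0.78 and 1.57 overlapped those of the empty virus (-0.82, -0.19 and 0.76). Rela rose by 0.99 (SE 0.18, 1.98-fold, adjusted p = 0.000758), and on series 15 slides alone it was not called (0.86, adjusted p = 0.0515).

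Among the inhibitors, Nfkbia, which encodes inhibitor of kappa B alpha and is itself a classical NF-kB target, had the tightest values. Its stimulated ratios were 1.86, 2.25 and 2.71 against -0.27, 0.18 and 0.67, and it rose by 2.07 (SE 0.14, 4.2-fold, adjusted p = 2.32e-09). Nfkbie, the epsilon form, had ratios of 0.47, 1.16 and 2.09 against -0.76, -0.23 and 0.41. It rose by 1.48 (SE 0.18, 2.79-fold, adjusted p = 1.02e-05). The beta form Nfkbib stood at 0.23, 0.81 and 1.57 against -0.71, -0.09 and 0.23, where the ranges meet. It rose by 1.03 (SE 0.16, 2.04-fold, adjusted p = 0.000107).

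Of the ubiquitin enzymes, Tnfaip3 (the deubiquitinase A20, a brake on the kinase complex) varied most. Its stimulated ratios were -0.73, 1.27 and 2.33 against -0.52, -0.14 and 0.50, so 1 stimulated array lay below all empty-virus arrays. Tnfaip3 rose by 1.23 (SE 0.26, 2.34-fold, adjusted p = 0.0027), and within slide series 14 alone the change was 1.04 (adjusted p = 0.24). Birc3 encodes a ubiquitin ligase of tumour necrosis factor receptor complexes, and its probes disagreed. Probe M200000771 rose by 0.68 (SE 0.20, adjusted p = 0.0311) from overlapping ranges of 0.09 to 0.98 and -0.82 to 1.52. That call was lost when any of 6 arrays was left out (replicates 1 and 11 of the empty virus and 1, 2, 3 and 5 of the stimulated group, adjusted p 0.0508 to 0.0626), on series 15 slides alone (0.28, adjusted p = 0.732) and with the sign of the unsettled replicates 3 and 9 turned (0.55, adjusted p = 0.0701). The call was also lost with no dye term (adjusted p = 0.0521). Probe M200007383 was at -0.12 (SE 0.13, adjusted p = 0.706).

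**Figure D2:**
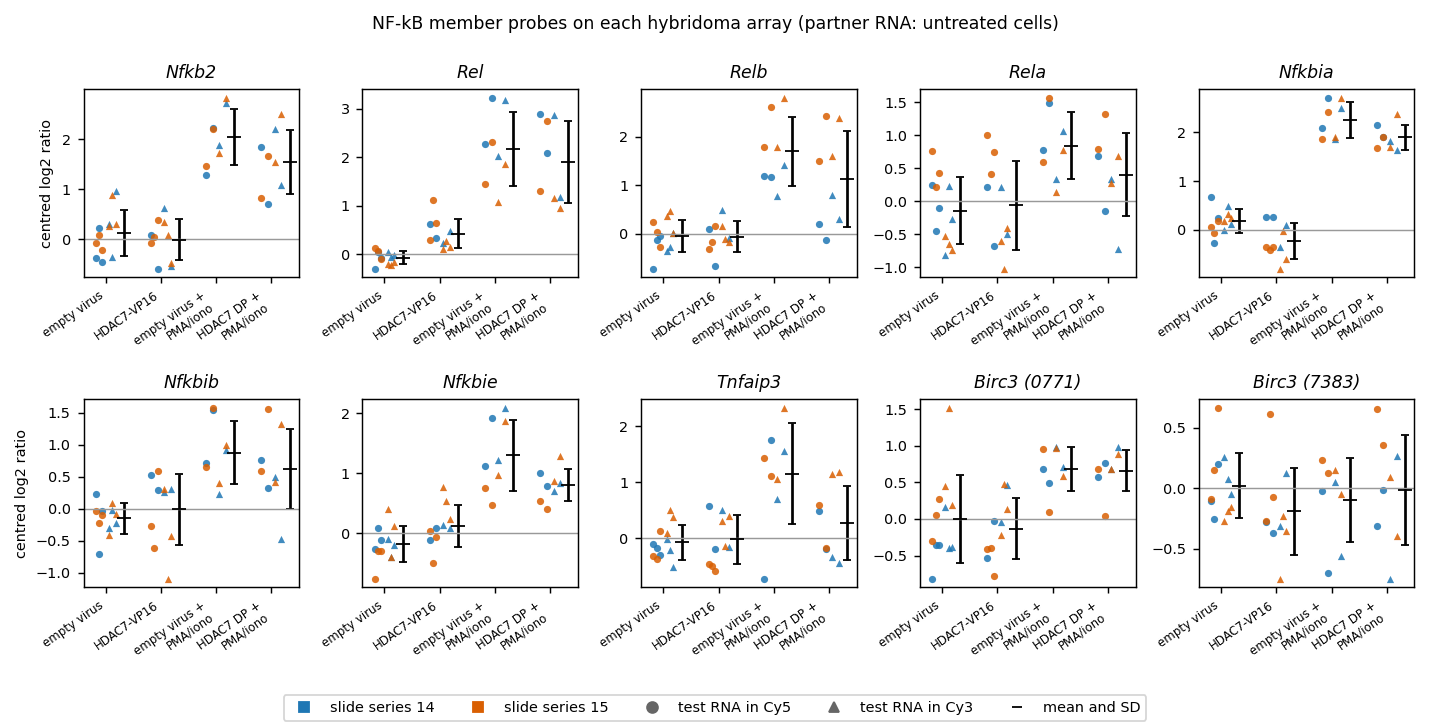
Centred log2 ratio of each member probe on each array of 4 hybridoma groups, in 1 panel per probe, coloured by slide series and shaped by dye, with the group mean and SD at the right. The stimulated arrays of Nfkb2, Rel, Relb, Nfkbia and Nfkbie with the empty virus all sit above the unstimulated empty-virus arrays.

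The slides of the stimulated groups were numbered 13 to 20 in both slide series. With the empty virus, Nfkb2 averaged 1.59 on slides 13 and 14 and 2.49 on slides 15 and 16 (4 arrays each), ranges that do not overlap. Nfkbia averaged 1.93 and 2.58 on these slides, again without overlap. With HDAC7 DP, Nfkb2 averaged 2.05 on slides 17 and 18 and 1.03 on slides 19 and 20. Relb averaged 1.39 on slides 13 and 14 and 2.00 on slides 15 and 16, with ranges that overlap. With HDAC7 DP, Relb averaged 1.45 on slides 17 and 18 and 0.82 on slides 19 and 20. Relb also differed by series: on slides 15 and 16 it had 1.16 and 1.41 in series 14 and 2.62 and 2.81 in series 15. The labels do not say whether these pairs of slides hold separate cultures.

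With HDAC7 DP no member was called against the empty virus when both were stimulated (0 of 10 probes, where 1.65% of all probes were called, 0.522% higher and 1.12% lower, and 3 of 10 had an unadjusted p under 0.05). On 9 of the 10 probes the estimate was below 0, and the median of the members was -0.40, beside 0.00 over all probes. Tnfaip3 showed the widest gap: its HDAC7 DP ratios were -0.45, 0.15 and 1.19, and the difference was -0.87 (SE 0.36, 95% confidence interval -1.64 to -0.11, adjusted p = 0.327). Relb differed by -0.56 (interval -1.42 to 0.30, adjusted p = 0.666) and Nfkb2 by -0.50 (-1.03 to 0.03, adjusted p = 0.47). For Nfkb2 the difference was called once arrays were scaled to one spread (-0.63, adjusted p = 0.0493). Nfkbie differed by -0.49 (-0.92 to -0.07, adjusted p = 0.321) and Nfkbia by -0.36 (-0.69 to -0.03, adjusted p = 0.355). The ranges of both groups overlapped on every member probe, and only 0.62% of all probes did not overlap. The difference from the empty virus was further from 0 on series 14 slides than on series 15 slides for Rela, at -0.88 against -0.00175, and for Relb, at -0.85 against -0.27.

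Against the unstimulated empty virus, 7 of the 10 probes rose with HDAC7 DP and stimulation and 0 fell (13.2% of all probes called, 6.23% higher and 6.97% lower). This comparison shares its control arrays with the one of the stimulated empty virus, so the values are only set side by side. Rel stood at 1.97 (SE 0.22) here and 2.25 with the empty virus, Nfkbia at 1.71 (SE 0.11) and 2.07, Nfkb2 at 1.41 (SE 0.20) and 1.91, and Relb at 1.19 (SE 0.29) and 1.75. The ratios of Nfkbia (1.64 to 2.37) and Rel (0.96 to 2.89) lay wholly above those of the unstimulated empty virus, and 2.24% of all probes did not overlap. Rela at 0.55 (SE 0.20, adjusted p = 0.0906) and Tnfaip3 at 0.36 (SE 0.20, adjusted p = 0.334) were not called here. With slides of one number averaged Tnfaip3 was called (adjusted p = 0.00865), and on series 15 slides alone Rela was (0.86, adjusted p = 0.0108). Without replicate 3 or replicate 5 of HDAC7 DP, or replicate 9 of the empty virus, Rela was called (0.68, 0.67 and 0.61). The call of Birc3 probe M200000771 (0.66, adjusted p = 0.0304) was lost without replicate 1 or 11 of the empty virus or replicate 1, 3, 4, 5 or 8 of HDAC7 DP (0.60 to 0.66), and on series 15 slides alone it stood at 0.20. The call was also lost with the sign of the unsettled replicates 3 and 9 turned (0.53, adjusted p = 0.0659) and with no dye term (adjusted p = 0.0563). On series 14 slides alone the calls of Relb (0.54, adjusted p = 0.135) and Nfkbib (0.45, adjusted p = 0.388) were lost.

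**Figure D3:**
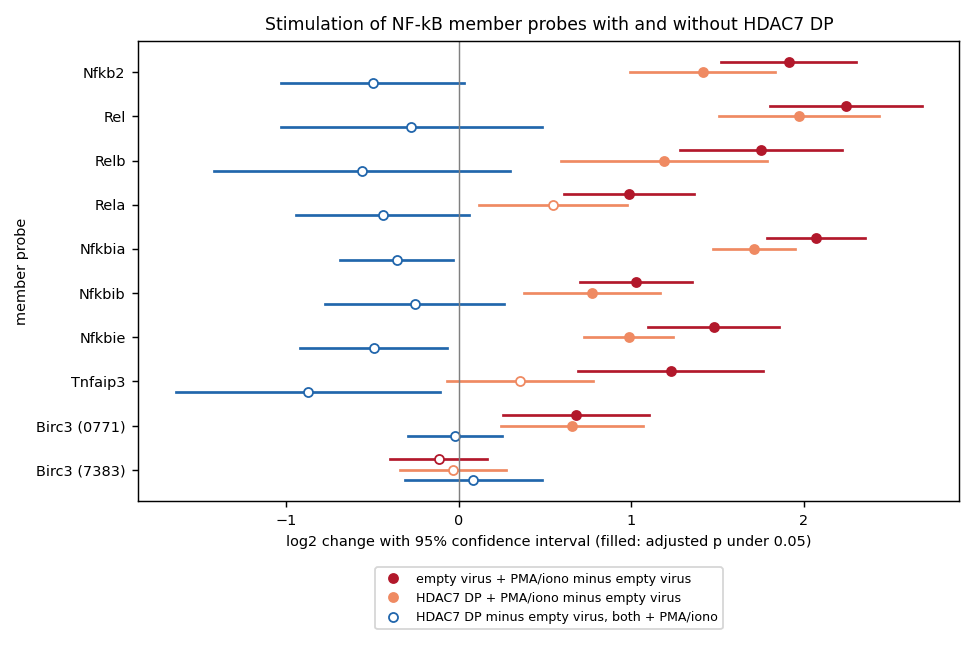
Log2 change of each member probe with its 95% confidence interval in 3 comparisons of stimulated hybridoma groups, filled where the adjusted p is under 0.05. The differences between HDAC7 DP and the empty virus lie below 0 on 9 of the 10 probes, and none is filled.

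The other genes of the pathway, in lists chosen with earlier results of these data known, moved less evenly. With stimulation of empty-virus cells 6.07% of all probes were higher and 6.43% lower. Of 20 probes of receptor adaptors and kinases upstream of NF-kB, 4 rose and 2 fell in that comparison (median 0.11). Bcl10, an adaptor between the antigen receptor and the kinase complex, rose by 1.17, and Birc2, the ligase related to Birc3, fell by 0.57. Of 16 probes of other inhibitors and regulators, 3 rose and 1 fell: Traf1, a receptor adaptor, rose by 3.04, both probes of the deubiquitinase Otud7b rose by 0.56 and 0.47, and the deubiquitinase Cyld fell by 0.75. Of 27 probes of known NF-kB targets 15 rose and 0 fell (median 0.47), led by the receptor Tnfrsf9 (3.52) and the cytokines Il2 (3.37) and Tnf (3.15).

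Among those lists, 4 of 27 target probes fell with HDAC7 DP against the stimulated empty virus and 0 rose. Over all probes 1.12% were lower and 0.522% higher. They were the lymphotoxin genes Ltb (-1.59, adjusted p = 0.0024) and Lta (-1.59, adjusted p = 0.0054), the stress gene Gadd45b (-1.12, adjusted p = 0.0181) and Tnf (-0.81, adjusted p = 0.0285). Upstream, 1 of 20 probes fell and 1 rose, counts too small to be told apart from these shares. Ikbke, an inducible kinase related to the complex, fell by 0.72 and the adaptor Tank rose by 0.39. None of the 16 probes of other inhibitors was called.

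Without stimulation at most 1 of the 10 member probes was called in a hybridoma comparison. Counts this small out of 10 probes cannot be told apart from the shares over all probes. With HDAC7-VP16 1 of 10 probes changed, where 2.72% of all probes were called, 1.42% higher and 1.29% lower. Rel rose by 0.50 (SE 0.09, 1.41-fold, adjusted p = 0.00251) from ratios of 0.11, 0.31 and 1.13 against -0.29, -0.06 and 0.13, which overlap on 1 array. On series 14 slides alone the change was 0.47 (adjusted p = 0.384), on series 15 slides 0.52 (adjusted p = 0.038), and in 1 fit of all 11 groups, which share an estimate of spread, it was not called (adjusted p = 0.207). Nfkbia was lower at -0.41 (SE 0.13, adjusted p = 0.0998), and it was called on series 15 slides alone (-0.58, adjusted p = 0.017), in the fit of all 11 groups (adjusted p = 0.0258), and without replicate 3 of the empty virus (-0.46) or replicate 9 of HDAC7-VP16 (-0.47). Of the 8 other probes none had an adjusted p under 0.05. The comparison uses the same 12 control arrays as those of the stimulated cells.

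MEF2D-VP16, the activation domain joined to a MEF2 transcription factor, was compared with the 4-array empty-virus set, and 1 of the 10 member probes changed there, beside 12.6% of all probes (6.4% higher, 6.16% lower). Nfkbia had ratios of 0.56, 0.72, 0.20 and 0.59 with MEF2D-VP16 against -0.29, -0.22, -0.12 and -0.25, without overlap, as for 15.9% of all probes and for Birc3 probe M200007383. It rose by 0.74 (SE 0.13, 1.67-fold, adjusted p = 0.00459), and against the 16 empty-virus arrays of both sets it was 0.43 (adjusted p = 0.0723). Tnfaip3 was at 0.55 (SE 0.19, adjusted p = 0.0898), with ratios of 0.44, 0.44, 0.61 and 0.24, and was called without replicate 4 of the control set (adjusted p = 0.0176), against all 16 empty-virus arrays (0.52) and against untreated cells (0.43). Rela was at -0.48 (SE 0.24, adjusted p = 0.266) and was called without replicate 3 of the control set (-0.76).

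Nur77, an orphan nuclear receptor, changed none of the 10 probes against the same 4 arrays (6.91% of all probes called, 3.62% higher and 3.29% lower, 1 member at an unadjusted p under 0.05). Nfkb2 came nearest, with ratios of -0.24, -0.96, -0.40 and -0.15 against -0.03, 0.29, 0.11 and 0.14. The groups did not overlap, which was so for 7.98% of all probes, and the difference was -0.56 (SE 0.17, adjusted p = 0.076). The empty virus itself called 0 of 10 members against untreated cells in the 12-array set (1.97% of probes called, 0.626% higher and 1.35% lower, 2 members at an unadjusted p under 0.05) and 0 of 10 in the 4-array set (5.72% of probes called, 2.71% higher and 3.01% lower, 4 members). Without replicate 3 of the 4-array set Rela was called (0.62, adjusted p = 0.043).

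Thymocytes showed another combination of members. Between transgenic and mhc -/- thymocytes 4 of the 10 probes were higher in the transgenic cells and 0 lower, where 36.3% of all probes were called, 20.5% higher and 15.8% lower. At 40%, the share of members called was near that over all probes. The median of the members was 0.26, beside -0.01 over all probes. Tnfaip3 led, with ratios of 1.68, 2.06 and 2.50, and was higher by 2.07 (SE 0.09, 4.21-fold, adjusted p = 3.22e-06). Nfkbib had ratios of 0.70, 0.88 and 1.06, and was higher by 0.90 (SE 0.05, 1.87-fold, adjusted p = 1.66e-05). All 6 arrays were above 0 for these genes, and for the subunits Rela and Nfkb2.

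Rela was higher by 1.20 (SE 0.22, 2.29-fold, adjusted p = 0.00408) and Nfkb2 by 0.68 (SE 0.09, 1.6-fold, adjusted p = 0.00101). For Rela the slides fell apart: replicates 1 to 4 had ratios of 1.47 to 1.74, and replicates 5 and 6 had 0.52 and 0.27. Nfkbie behaved alike, with 0.51 to 1.14 on the first 4 and -0.52 and -0.66 on the others. It was not called over all 6 arrays (0.30, SE 0.25, adjusted p = 0.422), and it was called on slides 1 to 4 (0.75, adjusted p = 0.00275). Of the 4 members that rose most with stimulation, Nfkb2 was among those called here, and Rel, Relb and Nfkbia were at 0.09 (SE 0.12), 0.08 (SE 0.07) and 0.09 (SE 0.05), not called. Without replicate 4, at -0.62, Rel was called (0.24, adjusted p = 0.0159). Birc3 probe M200000771 was at -0.15 and M200007383 at 0.21, and they were called without replicate 5 (-0.24) and without replicate 2 (0.26) respectively.

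Cell type markers moved on the same arrays, where 20.5% of all probes were higher and 15.8% lower. In the transgenic thymocytes 4 of 6 probes of mature single-positive thymocytes were higher and 1 lower (median 1.93), and 4 of 5 double-positive markers were lower (median -0.50). Of the antigen-presenting cell markers 4 of 5 were higher (median 1.96), as were 5 of 9 thymic epithelium markers (median 0.68), 3 of 5 B cell markers (1 lower) and the only erythroid probe (2.04). Of 8 T cell markers 4 were higher and 1 lower, and of 7 myeloid markers 1 was higher and 2 lower. The part of the markers in the member differences was not tested. In bulk RNA a different number of cells of a type and a different amount of RNA per cell cannot be told apart. Of the upstream genes 8 of 20 probes were higher, the kinases Ikbke (2.25), Ikbkb (1.56) and Prkcq (1.31) among them, and 2 were lower. Targets were split, with 12 of 27 probes higher, Ltb (3.07) and Tnf (1.16) among them, and 4 lower, Il2ra (-0.88) among them.

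After peptide injection Nfkb2, Rel, Nfkbia, Nfkbie and Birc3 rose early. At 3 h 6 of the 10 probes rose and 0 fell (2.71% of all probes called, 1.49% higher and 1.21% lower), with a member median of 0.81, beside 0.00 over all probes. At 6 h 5 of 10 rose (4.57% called, 2.03% higher and 2.54% lower, with a member median of 0.62), and at 12 h 3 of 10 (3.38% called, 1.66% higher and 1.72% lower, with a median of 0.26). The marker lists shifted too. Of 9 thymic epithelium markers 4, 4 and 3 fell at the successive times, and of 7 myeloid markers 2, 4 and 1 fell. The only erythroid probe fell at 3 h (-1.32) and 6 h (-0.81) and was not called at 12 h. Of 6 mature single-positive markers 1, 2 and 1 rose, and 1, 2 and 0 fell. Of 5 antigen-presenting cell markers 0 were called at any time. At 6 h 1 of 8 T cell, 1 of 5 double-positive and 1 of 5 B cell markers fell, as did 1 T cell marker at 12 h. The part of the markers in the member changes was not tested.

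Nfkb2 was the largest member at 3 h and 6 h. Its ratios ran 1.10, 1.45 and 2.12 at 3 h, and it rose by 1.51 (SE 0.15, 2.85-fold, adjusted p = 0.00362). At 6 h they were 1.13, 1.71 and 2.05, and it rose by 1.65 (SE 0.10, 3.13-fold, adjusted p = 8.23e-05). At 12 h the arrays spread from 0.03 to 1.90, and the mean of 0.90 was not called (SE 0.27, adjusted p = 0.115). With slide series as a term (1.13, adjusted p = 0.000738) or all groups in 1 fit (adjusted p = 8.69e-05) Nfkb2 was called at 12 h. Rel was above 0 on all 18 peptide arrays. It rose by 1.47 (SE 0.17, adjusted p = 0.00736), 0.99 (SE 0.16, adjusted p = 0.0123) and 0.70 (SE 0.13, adjusted p = 0.0461) at the successive times. The 12 h call of Rel was lost without any of replicates 3 to 6 (0.66 to 0.79, adjusted p 0.0915 to 0.192).

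Relb and Rela were not called at any time in the fits of each time alone. Relb had ratios of 0.16, 0.97 and 2.09 at 3 h, and its mean of 1.07 had an SE of 0.30 (adjusted p = 0.131). With all groups in 1 fit Relb was called at 3 h (adjusted p = 0.00179). With slide series as a term Relb was called at 6 h (0.95, adjusted p = 0.0044) and 12 h (0.55, adjusted p = 0.00593). Rela stood at -0.10 (SE 0.08) at 3 h and -0.003 (SE 0.06) at 6 h. At 12 h its ratios of -1.94, -1.50 and 0.38 gave -1.03 (SE 0.34, adjusted p = 0.134), which was called without replicate 1 (-1.34), with slide series as a term (-0.73) and with all groups in 1 fit (adjusted p = 0.000111).

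Nfkbia was called at each time. It was above 0 on all 18 arrays and rose by 0.85 (SE 0.10, adjusted p = 0.00913), 0.77 (SE 0.08, adjusted p = 0.0015) and 0.70 (SE 0.08, adjusted p = 0.0119). Without replicate 6 at 3 h (adjusted p = 0.0537), or any of replicates 3 to 5 at 12 h (0.0535 to 0.0713), it was no longer called. Nfkbie rose by 0.77 (SE 0.09, adjusted p = 0.00736) at 3 h and 0.36 (SE 0.07, adjusted p = 0.0211) at 6 h, and stood at -0.03 at 12 h. Its 3 h call was lost without replicate 5 (adjusted p = 0.0559), and its 6 h call without replicates 2, 3, 5 or 6 in turn and with all groups in 1 fit (adjusted p = 0.233). Nfkbib was at 0.31 (adjusted p = 0.0956), 0.30 (adjusted p = 0.149) and -0.52 (adjusted p = 0.149), and at 12 h it was called without replicate 2 (-0.70) and with all groups in 1 fit (adjusted p = 0.0116). With slide series as a term it was called at 6 h (0.39).

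Birc3 had its highest group means here rather than in the hybridoma. Probe M200000771 rose by 1.11 (SE 0.13, adjusted p = 0.00736), 0.81 (SE 0.07, adjusted p = 0.00059) and 1.06 (SE 0.07, adjusted p = 0.00306), with all 18 arrays above 0. Probe M200007383 rose at 3 h (0.47, SE 0.06, adjusted p = 0.0115), a call lost without replicates 3, 5 or 6 in turn, and stood at 0.24 and 0.16 later. Tnfaip3 was not called at any time, with means of 0.47 (SE 0.24), 0.56 (SE 0.13, adjusted p = 0.0547) and -1.30 (SE 0.58, adjusted p = 0.246). Without replicate 1 at 6 h (0.42) or replicate 2 at 12 h (-1.95) it was called. With slide series as a term Tnfaip3 was called at 6 h (0.68, adjusted p = 0.00191) and 12 h (-0.81, adjusted p = 0.045), and with all groups in 1 fit at 12 h (adjusted p = 0.000139).

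**Figure D4:**
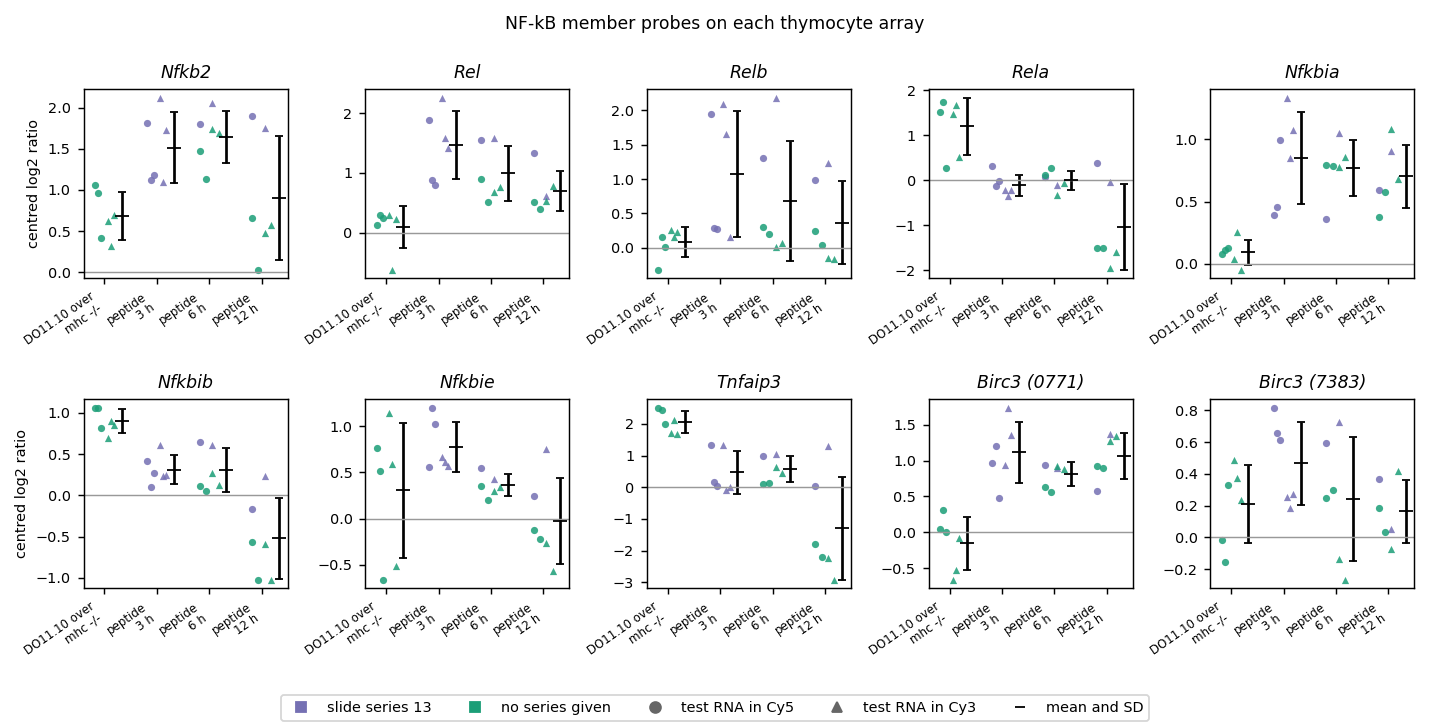
Centred log2 ratio of each member probe on each thymocyte array, in 1 panel per probe, coloured by slide series as the titles give it and shaped by dye, with the group mean and SD at the right. In the transgenic against mhc -/- group the shape gives the dye of the mhc -/- RNA. At 12 h the arrays of both slide kinds stand apart for Tnfaip3, Rela and Nfkb2.

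The arrays at 12 h divide by slide. Tnfaip3 had ratios of 0.04 and 1.30 on the slides of series 13 and -1.78 to -2.91 on the 4 slides with no series. Rela had 0.38 and -0.04 against -1.50 to -1.94, and Nfkb2 1.90 and 1.75 against 0.03 to 0.66. On the slides with no series alone, Tnfaip3 fell by 2.29 (adjusted p = 4.92e-05) and Rela by 1.63 (adjusted p = 3.38e-05) against uninjected cells, and Nfkb2 rose by 0.44 (adjusted p = 0.0309). At 6 h Relb had 1.31 and 2.19 on series 13 slides and 0.01 to 0.30 on the others. At 3 h the titles give every slide as series 13, but 4 slide names recur in titles of 6 h or 12 h arrays. Replicates 1 and 2, whose names do not recur, had Tnfaip3 ratios of 1.34 and 1.33, and the other 4 had -0.10 to 0.17.

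Between times, 1 of 10 members changed from 6 h to 12 h (3.18% of all probes called, 1.02% higher and 2.16% lower) and 0 of 10 from 3 h to 6 h (0.0121%, with 2 members at an unadjusted p under 0.05). Nfkbib fell by 0.83 (SE 0.19, adjusted p = 0.0264), from ratios of 0.05 to 0.65 at 6 h and -1.03 to 0.24 at 12 h. The fit holds the 18 peptide arrays, and the call was lost without any of 5 arrays at 6 h (replicates 1 to 5) or 4 at 12 h (replicates 3 to 6). Without 12 h replicate 1, Tnfaip3 (-2.16), Rela (-1.29) and Nfkb2 (-0.99) were called too, and without 12 h replicate 2, Tnfaip3 (-2.41), Rela (-1.27) and Nfkbie (-0.57). Between these times 3 of 5 antigen-presenting cell markers fell (median -0.83), and 2 of 6 mature single-positive, 2 of 7 myeloid and 1 of 9 thymic epithelium markers rose, and their part in the member changes was not tested. On series 13 slides alone the difference of Nfkbib was -0.60 (adjusted p = 0.401). Tnfaip3 differed by -1.86 (SE 0.56, adjusted p = 0.0738) and Rela by -1.03 (SE 0.30, adjusted p = 0.0672). With slide series as a term Tnfaip3 (adjusted p = 0.00644), Rela (0.00951) and Nfkb2 (0.0258) were also called. Within series 13 slides the 3 genes stood at -0.35, 0.19 and -0.10, and within the slides with no series at -2.62, -1.63 and -1.07. A moderated F test over the 3 times called 2 of 10 members, Nfkbib (adjusted p = 0.0191) and Nfkbie (0.0357), where 4.09% of all probes were called. Nfkbie lost that call in 12 of the 18 fits that left out 1 array, and Nfkbib without any of 12 h replicates 4 to 6. Without 12 h replicate 1 or 2, Rela and Tnfaip3 were called as well, and without replicate 1 also Nfkb2 and Rel. With slide series as a term the call of Nfkbie was lost (adjusted p = 0.109).

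Target genes of the pathway were called mostly as higher. Of 27 target probes 14 rose at 3 h, 17 at 6 h and 9 at 12 h, and 0, 2 and 0 fell. Tnfrsf9 stood at 2.59, 3.25 and 3.65, the costimulatory receptor Tnfrsf4 at 2.47, 3.00 and 3.08, and Gadd45b at 3.49, 3.19 and 2.22. Of 20 upstream probes 0, 1 and 1 were called, each time Tank. Of 16 probes of other inhibitors 3, 4 and 2 rose and 0, 1 and 0 fell. Traf1 stood at 0.80, 0.78 and 1.07 and the ribonuclease Zc3h12a at 0.99, 0.67 and 0.78. Over all probes 1.49%, 2.03% and 1.66% were higher and 1.21%, 2.54% and 1.72% lower.

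Across the 11 group means the members fell into sets that were drawn after the values were seen, so the correlations describe and carry no test. Nfkb2, Rel, Relb, Nfkbia and Nfkbie correlated with each other at Pearson r of 0.85 to 0.97 over 10 pairs. Rela, Nfkbib and Tnfaip3 correlated at 0.89 to 0.93 over 3 pairs, and the 15 pairs between both sets at 0.17 to 0.71. Several groups share the kind of partner cells, and all share one platform, so the points cannot be taken as independent. Over all 45 pairs r ran from -0.37 to 0.97 with a median of 0.50. The first set holds 4 of the 5 genes with a consensus match in the printed windows, and Relb had no promoter entry. With the sign of the transgenic against mhc -/- ratio turned, r ran from 0.86 to 0.97 within the first set, 0.89 to 0.94 within the second and 0.49 to 0.80 between them. Without that group the ranges were 0.86 to 0.97, 0.82 to 0.91 and 0.32 to 0.81. In the second set, Tnfaip3 had matches and Rela and Nfkbib had none.

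**Figure D5:**
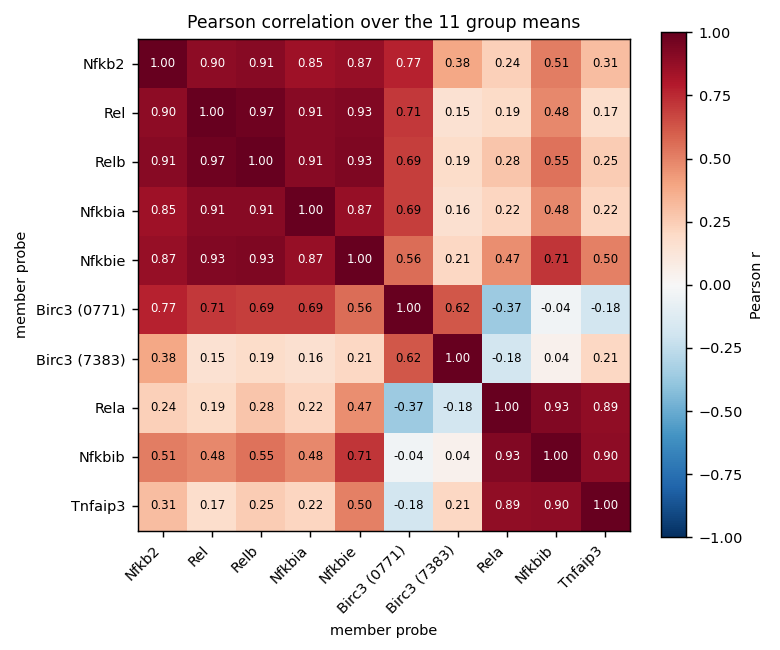
Pearson correlation between member probes over the 11 group means, with the probes ordered by gene. Nfkb2, Rel, Relb, Nfkbia and Nfkbie form a block with rounded r of 0.85 to 0.97, and Rela, Nfkbib and Tnfaip3 one of 0.89 to 0.93.

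In the order of group means the stimulated empty virus came first for Nfkb2 (2.04 ± 0.55, SD, n = 8), Rel (2.18 ± 0.76), Relb (1.70 ± 0.71), Nfkbia (2.26 ± 0.37) and Nfkbie (1.30 ± 0.59). HDAC7 DP with stimulation was second for these members except Nfkb2, for which peptide at 6 h was. The transgenic against mhc -/- group came first for Tnfaip3 (2.07 ± 0.35, SD, n = 6), Rela (1.20 ± 0.64) and Nfkbib (0.90 ± 0.14), and peptide at 12 h came last for these 3 genes. This rests on the likely direction: with the sign turned that group stood last, at -2.07, -1.20 and -0.90, and the stimulated empty virus first. Neighbours in the order as given were seldom separate: of 100 neighbouring pairs 3 had intervals of mean ± SD that did not overlap. They were HDAC7 DP with stimulation over peptide at 3 h for Nfkbia, transgenic against mhc -/- over the 4-array empty virus for Nfkbia, and peptide at 3 h over 6 h for Nfkbie. The span between the highest and lowest group mean was widest for Tnfaip3 (3.37) and narrowest for Birc3 probe M200007383 (0.70).

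Among 3846 probes of named genes with a span of at least 1, those most like the members over the 11 group means were led by the transcription factor gene Junb for Relb (r = 0.98), Rel (0.96) and Nfkbia (0.96). Nfkb2 was followed most closely by Cd274, the gene of an inhibitory ligand (0.96), and Tnf (0.94), and Nfkbie by Tnf (0.96) and Lta (0.94). For Nfkbib the nearest gene was Bcl10 (0.96), for Rela it was Tjap1 (0.99) and for Tnfaip3 Phc2 (0.95). Birc3 probe M200000771 was nearest to Zc3h12a (0.94), Gadd45b (0.94) and Bhlhe40 (0.93). With the transgenic against mhc -/- ratio turned, r of these pairs ran from 0.91 to 0.99, and other probes were not searched again.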

How the data were processed

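The authors' series matrix holds, for 74 arrays with a pair of channels each, deposited log2 ratios between the channels. Per the labels' protocols, RNA came from an acid phenol and guanidinium extraction, and Cy3 or Cy5 dye was coupled to aminoallyl cDNA. The sources used here do not give scanner, background correction, normalization or log base, and base 2 is assumed. Column medians lay between -0.021 and 0.023, with 0 missing values.

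Arrays were grouped by title, centred on their median and fitted per probe with limma 3.58.1 (R 4.3.3, lmFit and eBayes), using the groups compared and a dye term. Changes against untreated, uninjected or mhc -/- cells were tests against 0. The adjusted p-value is Benjamini-Hochberg over 16463 probes, called under 0.05. The fit was tested on simulated data. Gene names come from the platform's annotation, which gave 1 symbol to 14551 probes. The named genes were all members, the called genes of 3 pathway lists and the 3 most correlated probes per member. The members and lists were chosen with earlier results of these data known. Promoters are RefSeq's. The source name of HDAC7-VP16 replicate 1 names the empty virus and its title HDAC7-VP16, and the title was followed.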

Additional observations from a re-analysis of the deposited data

Results flagged for a closer look

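On 3 of 100 combinations of a member probe and a group of 4 to 10 arrays, 1 array lay far from the others by Dixon's test, where chance gives about 1 in 20. They were Rel in HDAC7-VP16 replicate 5 (1.129), Rel on the transgenic against mhc -/- array of replicate 4 (-0.621), and Birc3 probe M200000771 in HDAC7 DP replicate 7 (0.034).

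The change differed between the 3 peptide times for Nfkbib (moderated F test in limma, adjusted p = 0.0191) and Nfkbie (adjusted p = 0.0357).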

How the results depend on the processing

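Of 37 pairs of a member probe and a comparison that were called, 28 kept the call in every fit that left out 1 array and 22 in every alternative. Over 805 alternative values for these pairs 54 lost the call and 0 changed direction. Of 103 pairs not called, 28 were called in at least 1 alternative. Fits within slide series 13, within slides of no series or within slides 1 to 4, and the slide term for differences between times, were chosen after seeing the data, as were the scaled and slide-term F tests and turning or leaving out the MHC group in the order and correlations.

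Counts of called members that moved are these. HDAC7-VP16 went from 1 to 0 on series 14 slides and 2 on series 15 slides (1 to 2 with 1 array left out). HDAC7 DP against the stimulated empty virus went from 0 to 1 with arrays scaled to one spread. MEF2D-VP16 went from 1 to 3 against untreated cells (1 to 2 with 1 array left out), and the 4-array empty virus gave 0 to 1 with 1 array left out. Peptide at 6 h went from 5 to 9 with slide series as a term. Peptide at 12 h went from 3 to 7 with all groups in 1 fit or slide series as a term, and to 8 on slides with no series (1 to 5 with 1 array left out). The step from 6 h to 12 h went from 1 to 2 with scaled arrays, 3 with all groups in 1 fit, 4 with slide series as a term, 0 on series 13 slides and 6 on slides with no series (0 to 4 with 1 array left out). The F test went from 2 to 4 with scaled arrays and to 4 with slide series as a term (0 to 6 with 1 array left out). Over all probes the number called also moved, for example at peptide 12 h (557, from 46 to 4067 over the alternatives), from 6 h to 12 h (523, from 99 to 2749), from 3 h to 6 h (2, from 1 to 118), for HDAC7-VP16 (447, from 7 to 703) and for the 12-array empty virus (325, 0 with the sign of replicates 3 and 9 turned). The cause was not tested.

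No paired analysis was possible because the labels give no replicate numbers that the compared groups share, and slide numbers name slides. Slides of one number in series 14 and 15 may hold the same RNA. The number of arrays limits the precision, and signal over background was not measured.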
